A study of Mus musculus with 23 samples.

Results

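Neutrophils of the lung, peripheral blood (PB) and bone marrow (BM) of mice, and whole lung tissue, were compared for 8 genes of the cytoplasmic lipid droplet: *Hilpda*, *Plin2*, *Plin3*, *Pnpla2*, *Abhd5*, *Lipe*, *Dgat1* and *Dgat2*. *Hilpda* was chosen on its higher level in lung than in PB neutrophils and on its lower level in lung neutrophils without *Piezo1*, and the other 7 were chosen by their known role, so the lung values of *Hilpda* are given as a description with no test. All 8 were found in every table, among 21878 genes listed for sorted cells and 55335 for whole lung. Neutrophils were sorted as CD45+CD11b+Ly6G+ cells from C57BL/6J mice in 3 libraries each of perfused lung, PB and BM (the tissue comparison). The methods describe enzyme digestion for lung but not for PB or BM, and negative selection before the sort for lung and PB. Tissue and this handling cannot be told apart in the comparisons with lung, and the part of handling was not tested. A second experiment held 2 libraries each of lung and PB neutrophils from WT and *Piezo1*-cKO mice, in which *Vav1*-iCre deletes exons 20 to 23 of *Piezo1* in all blood lineages, not in neutrophils alone. Whole lungs came from mice given an isotype antibody and from mice given an anti-Ly6G antibody that depletes neutrophils, in 3 libraries each. The methods give 7 to 12 weeks of age and both sexes for mice of the study in general but also speak of depletion early in life, and the age of the whole-lung mice is not given in the sources used here. The tissue comparison is described as 3 mice, whereas the sources used here do not say whether the other libraries were single animals or pools, so that p-values there measure the spread between these libraries. PIEZO1 is a channel opened by membrane stretch, and the experiments asked how the lung and this channel shape neutrophil gene expression.

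A lipid droplet is a store of triglyceride and sterol esters wrapped in a phospholipid monolayer with a coat of proteins. DGAT1 and DGAT2 add the last fatty acid to diacylglycerol to make triglyceride, perilipins such as PLIN2 and PLIN3 coat the droplet, and lipolysis begins with adipose triglyceride lipase, the product of *Pnpla2*, which needs its co-activator ABHD5 (CGI-58). HILPDA and G0S2 bind and inhibit that lipase, and hormone-sensitive lipase, the product of *Lipe*, takes the next step. *Hilpda* is known as a hypoxia-inducible gene, and neutrophils can carry droplets that feed fatty acid oxidation and the making of lipid mediators.

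Because *Hilpda* is known as a target of the hypoxia-inducible factors, the letters of their core element, ACGTG or GCGTG on either strand, were looked up in the RefSeq promoters (GRCm38.p6; 250 bases before to 50 after each annotated start). Promoters were found for 6 of the 8 genes, 8 promoters in all. The core was present in 5 of the 8, against 43.8% of all 32851 promoters of this length, so a match is common and is a description, not a binding site. *Hilpda*, on chromosome 6, held 3 matches around its 2 annotated starts, and the windows below are shown to set them beside those of 3 other members; capitals mark the core or its reverse complement, and positions count from 1 at the start of the transcript.
Hilpda, chr6:29272503-29272531, plus strand, position -111 from the second start and 28 from the first: caaccgcgagccGCGTGctttccgtgact
Hilpda, chr6:29272571-29272599, plus strand, position -43 from the second start: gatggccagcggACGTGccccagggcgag
Hilpda, chr6:29272606-29272634, plus strand, position -8 from the second start: caggttcggtacGCGTGcgcagtctccga
Plin2, chr4:86670046-86670075, minus strand, position -4: cagctgggctatCACGTGgctcggaggctt
Lipe, chr7:25396125-25396154, minus strand, position -155: aacagggacgacCACGTGagggggcggagg
Abhd5, chr9:122351586-122351614, plus strand, position -18: cgggcagcgcatGCGTGtctgcgaggccg
The *Plin2* and *Lipe* windows share a palindrome, CACGTG, that matches on both strands, and each of these promoters holds 1 further match of GCGTG. The *Pnpla2* and *Plin3* promoters and the second start of *Lipe* held none of these letters. Over all promoters, ACGTG was found in 19.6% and GCGTG in 32.4%.

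The deposited values were FPKM, which scale the fragments of a gene by its transcript length and by the depth of the library. Sorted libraries of the tissue comparison held 16502224 to 19330908 reads and those of the *Piezo1* experiment 9622147 to 15037351, recovered from the steps of the FPKM values, and the depth of the whole-lung libraries is unknown. All 10 neutrophil markers were above 1 FPKM in every sorted group. Of the 10 adipocyte markers 9 stayed below 1 FPKM in each of them, *Retn* excepted, with summed levels of 2.60 to 18.2 FPKM, and *Plin1*, the adipocyte perilipin, lay between 0 and 0.0967 FPKM. Of the 9 monocyte and macrophage markers *Csf1r* and *Adgre1* were above 1 FPKM in every sorted group and *C1qa*, *C1qb* and *C1qc* in BM as well, with sums of 120.1 to 150.2 FPKM in lung, 155.6 to 173.6 FPKM in PB and 63.1 to 67.8 FPKM in BM. Of the 9 alveolar macrophage markers, those above 1 FPKM in lung neutrophils were *Chil3* and *Siglecf* in the tissue comparison, with *Plet1* in the *Piezo1* experiment and *Ear2* in its cKO libraries. The 7 alveolar type 2 markers summed to 84.3 to 123.7 FPKM in lung and 57.4 to 117.4 FPKM in PB and BM neutrophils, with *Napsa* above 1 FPKM in every group and *Abca3* in all but cKO lung, and the surfactant gene *Sftpc* lay at 0.523 to 0.980 FPKM in lung neutrophils, 0 in PB and BM neutrophils and 14210 to 16810 FPKM in whole lung. *Piezo1* was covered by 3 to 10 reads in each library of the *Piezo1* experiment, in both genotypes, so the gene-level value does not check the genotype. In the mm10 annotation (GENCODE vM21) *Hilpda* spans chr6:29272488-29275446, *Plin2* chr4:86648386-86670060, *Plin3* chr17:56277476-56292873 and *Abhd5* chr9:122351608-122381524. *Pnpla2* spans chr7:141455198-141460743, *Lipe* chr7:25379527-25398710, *Dgat1* chr15:76502015-76511953 and *Dgat2* chr7:99153658-99182719, all protein-coding genes. The row named *Plin2* in the sorted tables carries the identifier of Gm12551, an unprocessed pseudogene near *Plin2*, and reads of both cannot be told apart there; in whole lung, where each has a row, Gm12551 lay at 0 to 0.631 FPKM and *Plin2* at 32.3 to 41.6 FPKM.

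*Hilpda* separated lung neutrophils from all other neutrophils by more than 2 orders of magnitude. In the tissue comparison it lay at 175.6, 157.8 and 166.0 FPKM in the lung libraries, at 0.460, 0.295 and 0.584 FPKM in PB and at 0.283, 0.234 and 0.197 FPKM in BM. The 3 lung libraries held 3329, 2996 and 3030 reads of the gene, those of PB 9, 6 and 12, and those of BM 6, 5 and 4. Lung was therefore 373-fold above PB and 700-fold above BM in mean FPKM (166.5 ± 8.87, 0.446 ± 0.145 and 0.238 ± 0.0431, SD, n = 3), whereas PB and BM, 1.88-fold apart, rested on 27 and 15 reads in all. In bulk samples such a value cannot tell more RNA per cell from more cells with the transcript.

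In the *Piezo1* experiment, whose lung libraries also entered the choice of the gene, *Hilpda* lay at 553.5 and 563.8 FPKM in WT lung neutrophils and at 1.03 and 0.903 FPKM in WT PB neutrophils. In *Piezo1*-cKO mice the values were 399.9 and 388.0 FPKM in lung and 0.940 and 1.15 FPKM in PB. In mean FPKM lung stood 578-fold above PB in WT and 377-fold in cKO mice, a difference of 8.15 ± 0.05 and 7.60 ± 0.07 (SE, n = 2 a group) on the scale of log2(FPKM + 1). No test is given, since the gene was chosen on these lung libraries and lay near the filter of 1 FPKM in PB. PB was covered by 30 reads in WT and 28 in cKO mice over both libraries. The 2 experiments were normalised separately, and the level of *Hilpda* in WT lung (558.6 and 166.5 FPKM) is set side by side only.

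**Figure D1:**
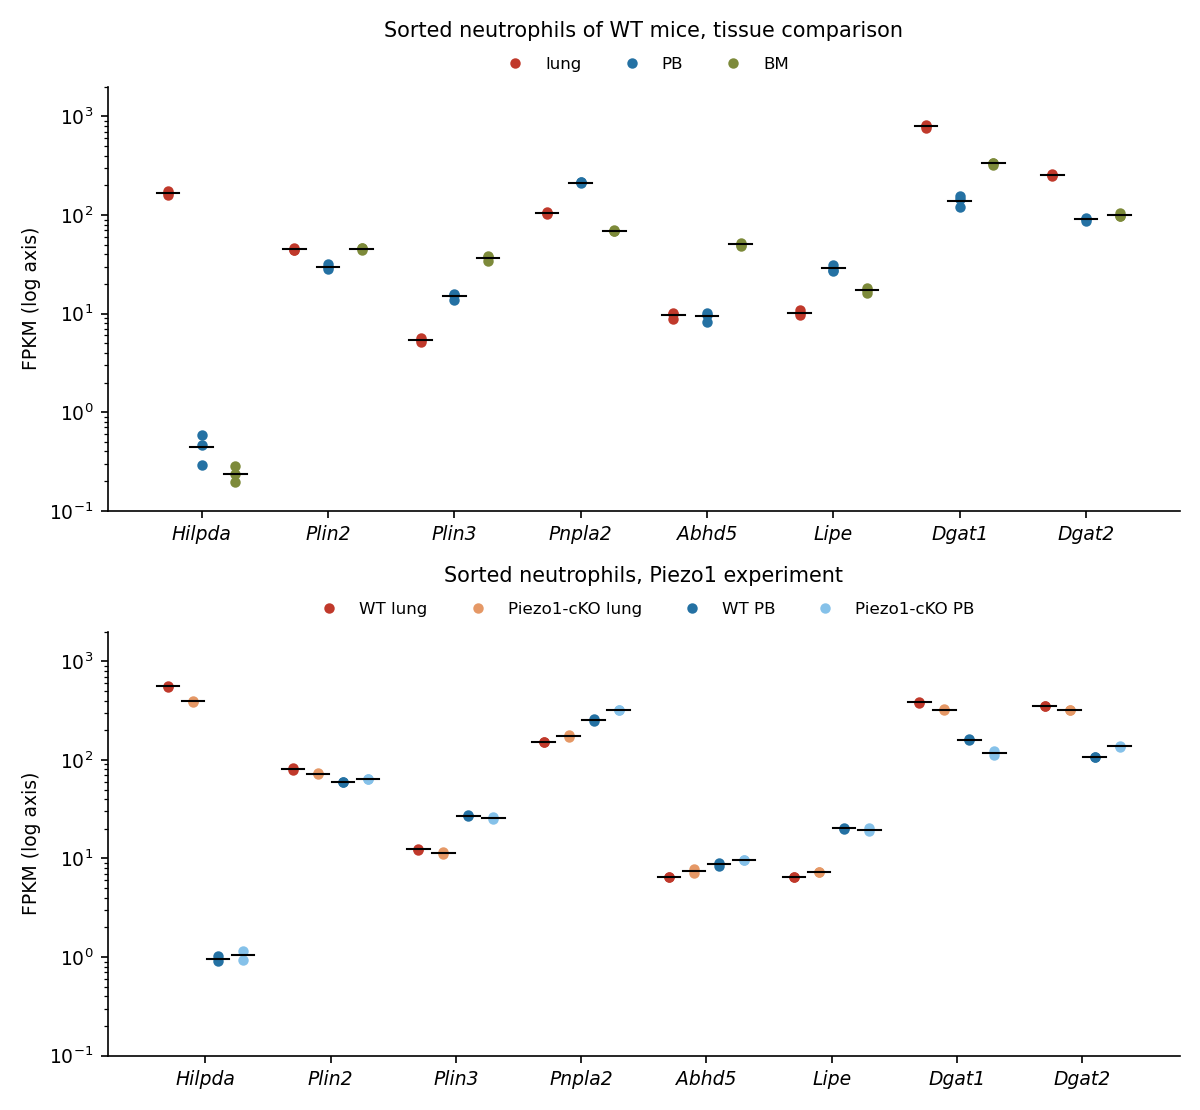
FPKM of the 8 droplet genes in each library (points) with the group mean (bars), on a log axis; upper panel, WT lung, PB and BM neutrophils (3 libraries a group); lower panel, WT and *Piezo1*-cKO lung and PB neutrophils (2 libraries a group). *Hilpda* in lung lay at 157.8 FPKM or more and in PB and BM at 1.15 FPKM or less, while no other member differed between groups of an experiment by as much.

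Among the 8 genes, *Hilpda* thus moved from the last place outside the lung to the upper ranks within it. In WT lung neutrophils of the tissue comparison the order by FPKM, which is per length, was *Dgat1*, *Dgat2*, *Hilpda*, *Pnpla2*, *Plin2*, *Lipe*, *Abhd5* and *Plin3*, and the libraries overlapped only for the neighbours *Lipe* and *Abhd5*. In PB it was *Pnpla2*, *Dgat1*, *Dgat2*, *Plin2*, *Lipe*, *Plin3*, *Abhd5* and *Hilpda*, with an overlap of *Plin2* and *Lipe*. In both lung groups of the *Piezo1* experiment *Hilpda* came first and in both PB groups last. The spread between libraries was small: the coefficient of variation of the other 7 members was at most 12.6% in the tissue comparison and 6.57% in the *Piezo1* experiment.

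In deposited FPKM, not rescaled between libraries, the triglyceride-making enzymes *Dgat1* and *Dgat2* were the other members with higher values in lung than in both PB and BM. *Dgat1* lay at 769.6, 806.6 and 818.4 FPKM in lung, at 145.6, 154.7 and 120.5 FPKM in PB and at 324.8, 336.8 and 339.1 FPKM in BM neutrophils. *Dgat2* lay at 252.7, 251.6 and 259.4 FPKM in lung, at 92.7, 87.6 and 90.1 FPKM in PB and at 98.3, 104.0 and 98.8 FPKM in BM. No library of lung overlapped one of PB or BM for either gene, and *Dgat1* was lower in PB than in BM by more than *Dgat2* was. In mean FPKM lung stood at 5.69 times PB for *Dgat1* and at 2.83 times for *Dgat2*, given with no test as for every lung and PB value of these libraries. *Dgat1* fell in PB against BM by 1.25 on the log2 scale (SE 0.0907, n = 3 a group, limma adjusted p = 6.01e-06), whereas the *Dgat2* estimate was -0.15 ± 0.05 (limma, adjusted p = 0.0245), below the fold required. A gene was called where the adjusted p was below 0.05 and the log2 fold change above 1 in size. Against BM, lung neutrophils had risen by 1.26 ± 0.03 for *Dgat1* (limma, adjusted p = 3.48e-11) and by 1.33 ± 0.03 for *Dgat2* (limma, adjusted p = 2.71e-11).

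Both enzymes rose in lung over PB in the *Piezo1* experiment too. *Dgat1* was at 389.8 and 378.5 FPKM in WT lung against 162.6 and 159.1 FPKM in WT PB, a rise of 1.25 ± 0.03 (limma, adjusted p = 2.12e-08). *Dgat2* was at 354.1 and 353.9 FPKM in WT lung against 106.2 and 105.9 FPKM in WT PB, a rise of 1.73 ± 0.02 (limma, adjusted p = 2.79e-09). In cKO mice the rises were 1.44 ± 0.05 for *Dgat1* and 1.20 ± 0.04 for *Dgat2* (limma, adjusted p = 1.3e-06 and 8.74e-07).

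The lipases ran the other way, being highest in PB. *Pnpla2* lay at 103.5, 106.7 and 104.4 FPKM in lung, at 213.8, 210.5 and 215.0 FPKM in PB and at 70.8, 69.5 and 68.4 FPKM in BM neutrophils, without overlap between any of the 3 tissues. *Pnpla2* rose in PB over BM by 1.60 ± 0.05 (limma, adjusted p = 4.03e-08). *Lipe* lay at 9.79, 10.8 and 10.1 FPKM in lung, at 27.8, 26.9 and 31.4 FPKM in PB and at 18.2, 17.4 and 16.4 FPKM in BM. In FPKM lung was the lowest of the tissues for *Lipe* and held 0.357 of the mean of PB, but the lung and BM difference of -0.70 was 0.0015 relative to the median gene, 0.044 in edgeR and 0.094 in DESeq2, so no order of lung and BM is given. In the *Piezo1* experiment *Lipe* was at 6.53 and 6.56 FPKM in WT lung against 19.9 and 20.6 FPKM in WT PB, and fell by 1.49 on the log2 scale (limma, adjusted p = 4.76e-07). *Pnpla2* there was at 152.4 and 152.0 FPKM in WT lung against 257.4 and 247.8 FPKM in WT PB, with an estimate of -0.73 ± 0.03 (limma, adjusted p = 3.82e-07) that missed the fold required and was 0.01 in DESeq2. Relative to the median gene the WT difference was -0.11 for *Pnpla2* and -0.88 for *Lipe*.

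*Abhd5*, the co-activator of the lipase, was highest in BM, as was *Plin3*. *Abhd5* lay at 52.5, 49.2 and 49.0 FPKM in BM, at 8.30, 10.2 and 9.65 FPKM in PB and at 9.82, 10.2 and 8.77 FPKM in lung neutrophils. PB and lung overlapped, and both were more than 5-fold below BM (ratio of BM to lung mean 5.23, to PB mean 5.36). *Abhd5* fell by 2.27 in lung and by 2.31 in PB against BM on the log2 scale (limma, adjusted p = 9.12e-11 and 9.37e-08). In lung against PB of the *Piezo1* experiment its estimates were -0.38 in WT and -0.32 in cKO mice, and their sign turned (0.19 and 0.18) when the libraries were rescaled by their median ratio.

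The coat genes split as well. *Plin3*, a perilipin that moves from the cytosol onto new droplets, stepped down from BM (34.5, 38.3 and 37.7 FPKM) to PB (15.5, 13.8 and 15.9 FPKM) and lung (5.70, 5.16 and 5.45 FPKM). *Plin3* fell in lung against BM by 2.56 and in PB against BM by 1.24 on the log2 scale (limma, adjusted p = 3.43e-11 and 1.58e-06). *Plin2*, the perilipin of droplets in most cells, was at 44.2, 46.6 and 44.7 FPKM in lung, at 29.6, 28.6 and 32.0 FPKM in PB and at 44.1, 46.4 and 46.1 FPKM in BM, so that lung and BM overlapped and PB was lower. In the *Piezo1* experiment *Plin2* was at 78.7 and 83.4 FPKM in WT lung against 59.6 and 59.8 FPKM in WT PB, an estimate of 0.43 ± 0.04 (limma, adjusted p = 3.05e-05). *Plin3* was at 12.4 and 12.3 FPKM in WT lung against 26.7 and 27.7 FPKM in WT PB, and fell by 1.08 (limma, adjusted p = 1.21e-06). Whether *Plin2* and *Plin3* passed the fold depended on scaling: after rescaling *Plin2* passed it (1.07) and *Plin3* did not (-0.47).

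In counts, 2 members rose (*Dgat1*, *Dgat2*) and 2 fell (*Plin3*, *Lipe*) of the 7 other than *Hilpda* in WT lung against WT PB, and the counts were the same in cKO mice, where *Plin3* fell by 1.12 and *Lipe* by 1.31. Of all 7143 genes tested 7.50% rose and 26.5% fell in WT, and of 7163 in cKO mice 7.93% rose and 23.0% fell. These splits turned on scaling, since FPKM shifted the median gene by -0.62 in WT and -0.54 in cKO mice: 536 genes rose and 1893 fell in WT, and 871 and 763 after rescaling; the same pairs in cKO mice were 568 and 1644, then 896 and 619. Rescaled, the rises of *Dgat1* and *Dgat2* stood in both genotypes, and *Plin3* and *Lipe* no longer passed the fold in either. *Plin2* then passed the fold in WT. Of the 7 members other than *Hilpda*, 2 rose and 2 fell in lung against BM (9.86% of 8236 genes rose and 36.0% fell; 812 and 2965 genes, and 1365 and 1469 after rescaling, with a median shift of -0.70), and the *Plin2* estimate of -0.01 became 0.63 there. In PB against BM 1 rose and 3 fell (7.85% and 14.1% of 8237 genes). By adjusted p alone, without the fold, nearly all members passed, as did most genes. In lung against BM 3 of 7 were then higher and 3 lower (21.6% and 71.0% of all genes), and in PB against BM 2 and 5 (29.9% and 43.2%). In lung against PB, *Dgat1*, *Dgat2* and *Plin2* were higher and *Plin3*, *Pnpla2*, *Abhd5* and *Lipe* lower, in WT and in cKO mice. Of all genes 16.5% were higher and 72.5% lower in WT, and 18.6% and 65.9% in cKO mice. *Hilpda* is left out there, as no test of it is given. The median of the 7 was -0.01 in lung against BM and -0.58 in PB against BM.

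**Figure D2:**
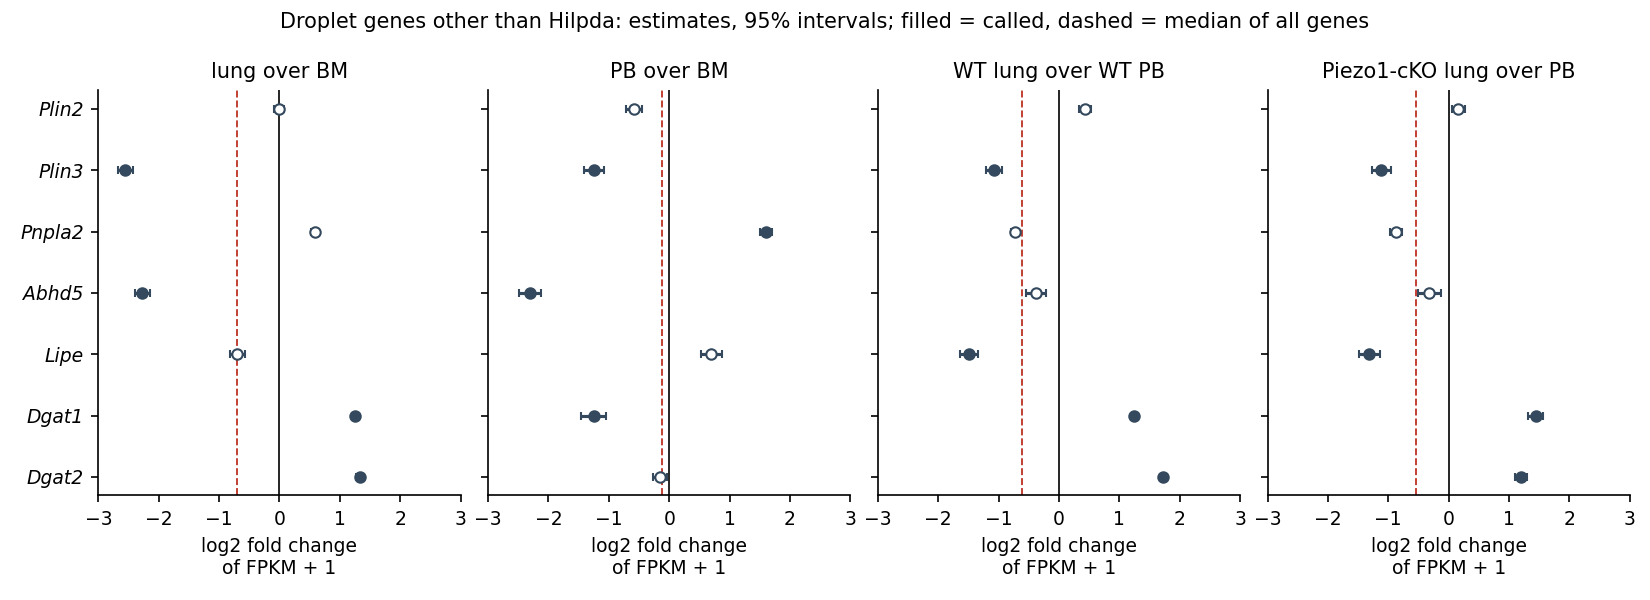
Differences in log2(FPKM + 1) of the 7 members other than *Hilpda* in 4 tissue comparisons (points, limma estimates; bars, 95% intervals; filled points, called; dashed line, median of all genes tested). *Dgat1* and *Dgat2* lay above 1 in lung against BM and against PB of both genotypes, and *Plin3* below -1 in all 4.

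The balance of these genes within a library does not depend on the scaling between libraries, so ratios of FPKM were formed after the values had been seen and are given with no test. *Hilpda* was at 1.48 to 1.70 times the FPKM of *Pnpla2* in lung, at 0.00140 to 0.00271 times in PB and at 0.00288 to 0.00399 times in BM neutrophils. The transcript of the inhibitor thus exceeded that of its lipase in every lung library and in no library of PB or BM. In the *Piezo1* experiment the ratio was 3.63 and 3.71 in WT lung, 2.25 in both cKO lung libraries and 0.0040 or less in PB. *G0s2*, the other inhibitor, was at 24.6 to 26.8 times *Pnpla2* in lung, 0.494 to 0.652 times in PB and 1.40 to 1.45 times in BM of the tissue comparison. In the *Piezo1* experiment it was at 36.0 times or more in lung, 1.64 and 1.67 times in WT PB and 0.749 and 0.793 times in cKO PB, so that unlike *Hilpda* it exceeded *Pnpla2* in some groups outside the lung. The sum of *Dgat1* and *Dgat2* was up to 9.41 times that of *Pnpla2* and *Lipe* in lung, with a mean of 9.15, 0.855 to 1.02 times in PB and 4.75 to 5.17 times in BM. This ratio of synthesis to lipolysis transcripts was therefore lowest in PB, and in the *Piezo1* experiment it was 4.62 and 4.68 in WT lung, 3.48 and 3.55 in cKO lung, 0.735 and 0.764 in cKO PB and 0.969 and 0.987 in WT PB. *Plin2* was 7.75 to 9.04 times *Plin3* in lung, 1.91 to 2.07 times in PB and 1.21 to 1.28 times in BM. *Abhd5* was at 0.708 to 0.741 times *Pnpla2* in BM and at 0.0960 times or less in PB and lung.

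**Figure D3:**
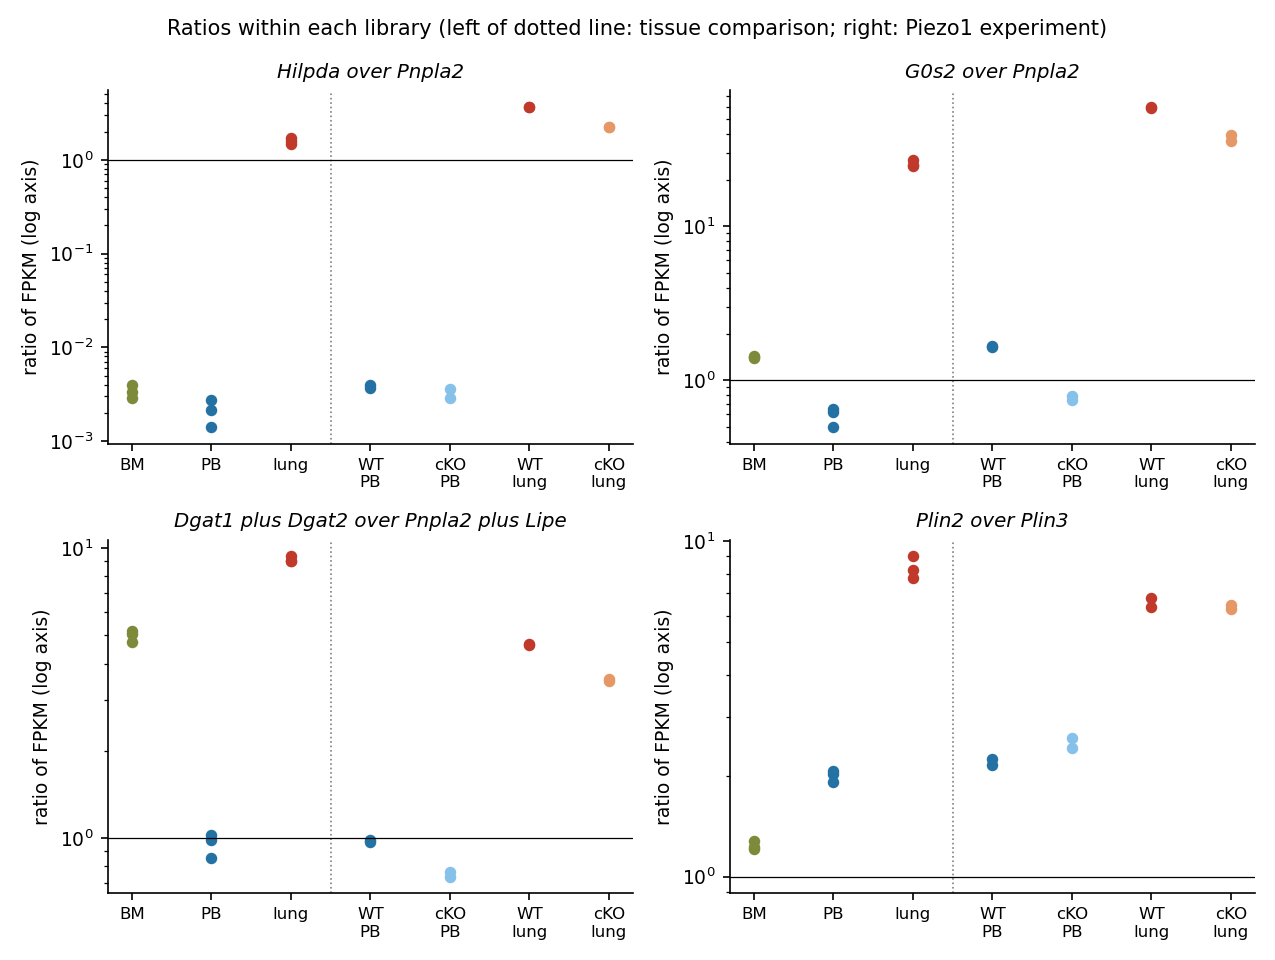
Ratios of FPKM within each library (points; log axes) for 4 pairs of transcripts in the 7 groups of sorted neutrophils, the tissue comparison left and the *Piezo1* experiment right of the dotted line. *Hilpda* exceeded *Pnpla2* (ratio above 1) in each of the 7 lung libraries and lay at 0.0040 or less of it in the other 10.

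Between genotypes the members differed little in lung. *Hilpda* was higher in WT (553.5 and 563.8 FPKM) than in cKO lung neutrophils (399.9 and 388.0 FPKM), 1.42-fold in mean FPKM and 0.50 ± 0.02 on the log2 scale; the study had picked *Hilpda* from these libraries, so no test is given. *Dgat1* was at 389.8 and 378.5 FPKM in WT and at 327.0 and 319.5 FPKM in cKO lung (estimate 0.25 ± 0.03, limma adjusted p = 0.000461). *Dgat2* was at 354.1 and 353.9 against 318.3 and 317.8 FPKM (0.15 ± 0.02, limma adjusted p = 0.00144), and *Plin2* at 78.7 and 83.4 against 71.6 and 72.9 FPKM (0.16 ± 0.04, limma adjusted p = 0.0134). *Pnpla2* was lower in WT, at 152.4 and 152.0 against 178.0 and 172.3 FPKM (-0.20 ± 0.03, limma adjusted p = 0.00152). The WT libraries are those set against WT PB above. The differences of the 8 members were at most 0.50 in size on the log2 scale. Of the 7 tested members 0 passed both the adjusted p and the fold in limma, edgeR or DESeq2, 5 had an unadjusted p under 0.05, and 0.995% of 6434 genes passed both (13 higher and 51 lower in WT, and 30 and 42 after rescaling). By adjusted p alone 3 were higher and 1 lower, against 15.8% and 35.0% of all genes. *Plin2* did not pass by adjusted p when WT library 2 or cKO library 1 was left out (adjusted p = 0.0835 and 0.0603, limma).

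In PB the genotype differences had another pattern. *Hilpda* was at 1.03 and 0.903 FPKM in WT against 0.940 and 1.15 FPKM in cKO PB, which overlapped (estimate -0.06, 95% interval -0.31 to 0.20, limma adjusted p = 0.694). *Dgat2* was lower in WT, at 106.2 and 105.9 against 139.9 and 136.3 FPKM (-0.38 ± 0.04, limma adjusted p = 0.000816), and *Pnpla2* was lower too, at 257.4 and 247.8 against 324.3 and 320.6 FPKM (-0.35 ± 0.04, limma adjusted p = 0.00087). *Dgat1* was higher in WT, at 162.6 and 159.1 against 123.4 and 113.3 FPKM (0.44 ± 0.05, limma adjusted p = 0.001). Of 8 members 0 passed both the adjusted p and the fold in limma, edgeR or DESeq2 (3.65% of 7256 genes), 3 had an unadjusted p under 0.05, and by adjusted p alone 1 was higher and 2 lower (23.2% and 26.5% of all genes). Both cKO PB libraries also held red-cell transcripts: the 7 erythroid markers summed to 1011 to 1136 FPKM there, 5 of them above 1 FPKM, against 24.9 to 26.8 FPKM in WT PB and 0.422 to 5.12 FPKM in the lung groups. Their part in the PB differences was not tested.

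The genotype difference in lung minus that in PB was 0.53 ± 0.04 for *Dgat2* (limma, interaction term, adjusted p = 7.04e-05), as WT was above cKO in lung and below it in PB. It was 0.27 ± 0.06 for *Plin2* (adjusted p = 0.00507), 0.15 ± 0.05 for *Pnpla2* (adjusted p = 0.0271) and -0.19 ± 0.06 for *Dgat1* (adjusted p = 0.0292, all limma). The value of 0.56 for *Hilpda* is given with no test. By adjusted p alone 3 of 7 tested members were higher and 1 lower, against 18.5% and 29.7% of 7560 genes, and 0 of 7 passed the fold of 1 as well in limma, edgeR or DESeq2, with 4 at an unadjusted p under 0.05 and 6.85% of all genes passing both. The *Dgat1* term did not pass after rescaling (-0.11, adjusted p = 0.139), and neither it nor that of *Pnpla2* passed in each fit with 1 library left out (largest adjusted p 0.0972 and 0.106).

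**Figure D4:**
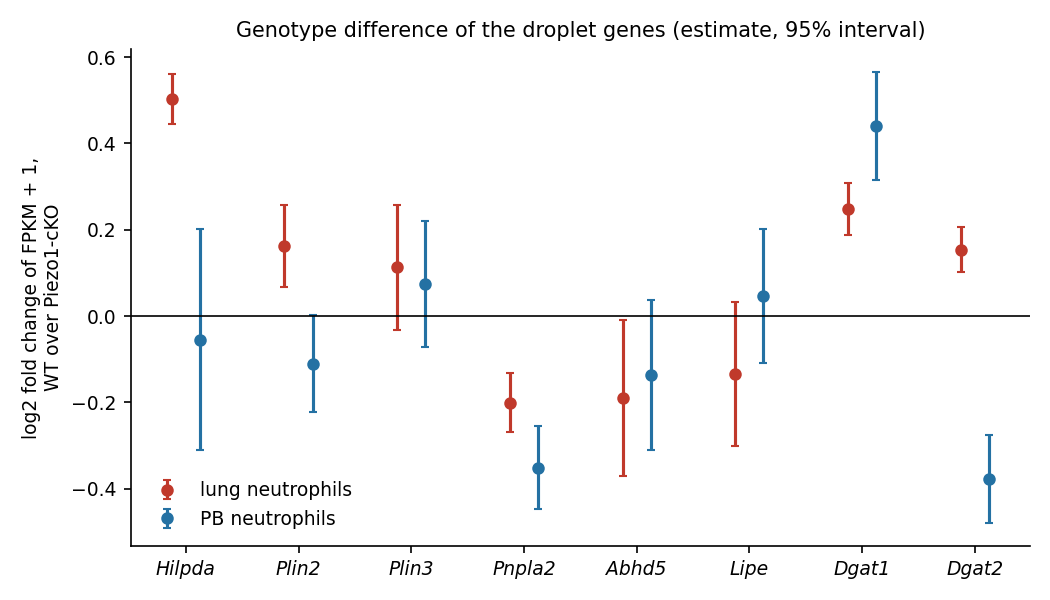
WT over *Piezo1*-cKO differences in log2(FPKM + 1) of the 8 members in lung and in PB neutrophils (points, limma estimates; bars, 95% intervals; 2 libraries a group). *Dgat2* lay at 0.15 in lung and -0.38 in PB, and *Hilpda* at 0.50 in lung and -0.06 in PB.

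Whole lung held all 8 transcripts, in another order. *Hilpda* lay at 41.8, 43.0 and 40.9 FPKM in lungs of control mice and at 45.7, 40.8 and 46.1 FPKM in lungs of neutrophil-depleted mice, which overlapped (0.07, 95% interval -0.10 to 0.25, limma adjusted p = 0.760). *Dgat1* and *Dgat2*, high in sorted lung neutrophils, were the lowest of the 8 in whole lung, at 3.17 to 4.66 and 4.42 to 8.51 FPKM over both groups. *Pnpla2* lay at 34.6, 38.8 and 48.7 FPKM in control and at 41.0, 51.0 and 61.3 FPKM in depleted lungs (0.32, 95% interval -0.09 to 0.72, limma adjusted p = 0.549). *Lipe* was the member whose groups did not overlap (8.48 FPKM or less in control and 8.98 FPKM or more in depleted lungs), and its difference of 0.26 had an unadjusted p of 0.0291 in limma but an adjusted p of 0.378. The sorted and whole-lung tables were normalised separately, so these levels are not compared by a test. The estimates of the other members lay between -0.08 and 0.17.

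Of 8 members 0 were called after depletion with limma (adjusted p below 0.05, log2 change above 0.5) and 1 had an unadjusted p under 0.05. The background was 0.00715%, which is 1 gene of 13990 (*Aqp5*), and 1570 genes had an unadjusted p under 0.05. The 10 neutrophil markers summed to 222.7 to 281.9 FPKM in control and 50.6 to 133.9 FPKM in depleted lungs, with *S100a9* at 107.3 to 138.2 and 18.2 to 57.0 FPKM, and *Ly6g*, the antibody's target, at 0.577 FPKM or less in both. *G0s2* was at 44.6, 40.7 and 34.9 FPKM in control and 25.9, 19.5 and 28.2 FPKM in depleted lungs (-0.70 ± 0.15, limma adjusted p = 0.185). The widest interval among the members was that of *Dgat2*, -0.49 to 0.59.

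**Figure D5:**
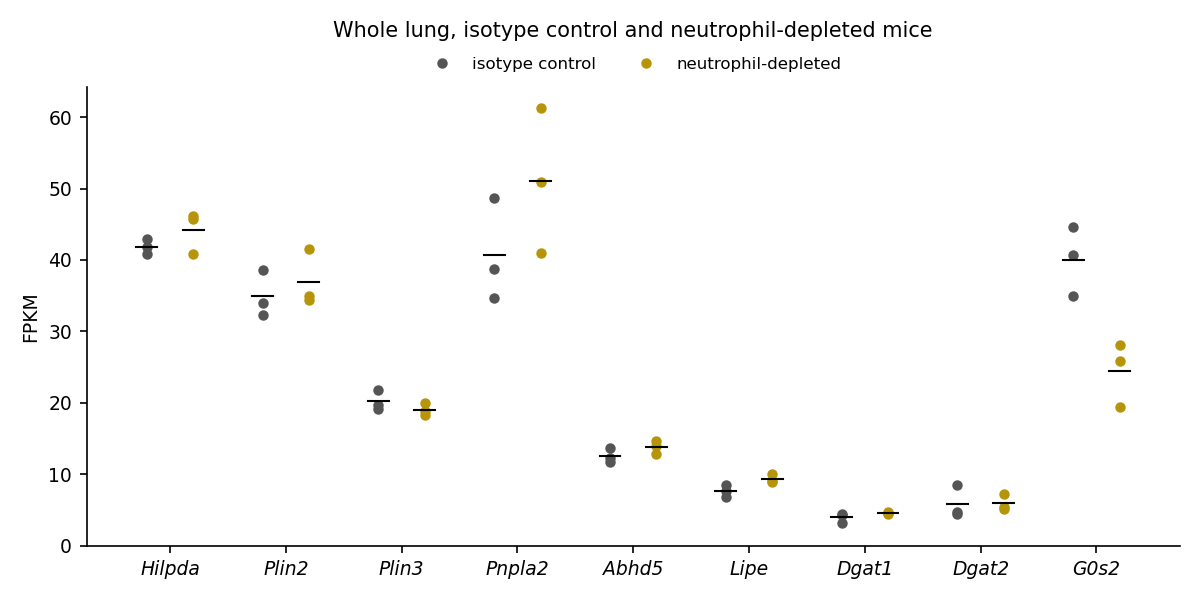
FPKM of the 8 members and *G0s2* in whole lungs of isotype control and neutrophil-depleted mice (points, 3 libraries a group; bars, group means; linear axis). The groups overlap for all members but *Lipe*, and for *G0s2* the 3 depleted lungs (19.5 to 28.2 FPKM) lay below the 3 controls (34.9 to 44.6 FPKM).

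Around the 8 members, 8 lists of 136 genes of droplet and fatty acid metabolism and of the hypoxia response were read. Of the lipolysis list, 2 rose and 2 fell of 11 tested in WT lung against WT PB: *G0s2*, the lipase inhibitor, rose by 4.43 ± 0.02 (limma, adjusted p = 1.51e-11), and *Pde4b*, a phosphodiesterase that breaks down cAMP, rose by 2.18. *G0s2* lay at 2616 to 2772 FPKM in lung, 106.1 to 137.2 FPKM in PB and 98.9 ± 0.13 FPKM (SD, n = 3) in BM neutrophils of the tissue comparison, and was lower in cKO lung (6415 and 6731 FPKM) than in WT lung (8992 and 9116 FPKM). It was also lower in cKO PB (242.8 and 254.2 FPKM) than in WT PB (421.2 and 414.9 FPKM), and the lung difference minus the PB difference was -0.29 ± 0.04 (limma, interaction term, adjusted p = 0.00119). These list counts stand beside 7.50% of all genes that rose and 26.5% that fell, shares that turned on scaling. Of 13 fatty acid oxidation genes 1 rose and 6 fell, with a list median of -0.77 beside -0.62 for all genes. *Slc25a20*, the carnitine-acylcarnitine carrier, rose by 1.62, and *Cpt2*, which frees acyl-CoA in the mitochondrion, fell by 2.69. Of 12 synthesis genes 1 rose (*Gpat3*, 1.02) and 2 fell (*Agpat2*, by 1.47, and *Agpat1*, by 1.18). Of 9 coat and assembly genes 0 were called at the fold and adjusted p in limma. By adjusted p alone 1 of these was higher and 7 lower, beside 16.5% and 72.5% of all genes. Of the fatty acid uptake genes 1 rose of 2 tested (*Slc27a4*, a fatty acid transporter, 1.32), and of 5 synthesis and desaturation genes 1 rose (*Elovl5*, an elongase of polyunsaturated fatty acids, 2.19) and 2 fell. Of 6 genes of the PPAR and LXR list 0 rose and 2 fell, *Abcg1* by 1.69 and *Rxrb* by 1.53.

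Of 21 tested genes of the hypoxia list 5 rose and 5 fell in WT lung against WT PB (7.50% and 26.5% of all genes). *Vegfa*, the angiogenic growth factor, rose by 4.08 ± 0.08 and is among the 5. The study had focused on *Vegfa* for its high level in lung neutrophils and its lower level without *Piezo1*. Its rises are therefore a description with no test, also against BM. *Hif1a*, which encodes the oxygen-regulated subunit, rose by 1.60 ± 0.04 (limma, adjusted p = 3.84e-08), and *Egln2*, an oxygen-sensing hydroxylase, fell by 1.57. The median of this list was -0.44, beside -0.62 for all genes. In cKO mice 4 of 20 rose and 5 fell (7.93% and 23.0% of all genes), with *Vegfa* at 3.87 and *Hif1a* at 2.09. The rises of *G0s2*, *Pde4b*, *Slc25a20* and *Slc27a4* in cKO mice were 4.72, 2.69, 1.55 and 1.69, and *Cpt2* fell by 3.08. Each list gene named here kept its sign relative to the median gene. Between genotypes 1 list gene was called in lung, *Agpat1* (-1.30, mean 0.820 FPKM in WT and 3.43 in cKO), and 2 in PB, *Gpat4* (-1.14) and *Ces1d* (1.53); none of the 120 tested in whole lung was called after depletion with limma.

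Against BM, lung neutrophils showed a further set of list genes, to be read beside the 9.86% of all genes that rose and 36.0% that fell (812 and 2965 genes, and 1365 and 1469 after rescaling). Of 13 lipolysis genes 3 rose, led by *G0s2* (4.74) and *Pde4b* (4.69), and 7 fell, among them *Mgll* (by 2.22), which cleaves monoglycerides. Of 15 oxidation genes 1 rose and 9 fell (list median -1.27, all genes -0.70), and of 13 synthesis genes 2 rose, with *Soat2*, a sterol esterifying enzyme, at 1.98, and 6 fell. Of 20 hypoxia genes 5 rose, *Vegfa* by 3.62, *Slc2a1*, a glucose transporter, by 2.75 and *Ddit4* by 2.68, and 4 fell. Of 10 coat and assembly genes 0 rose and 3 fell in lung, and in PB against BM 0 rose and 2 fell (*Tmem159*, which forms a complex with seipin, by 1.29, and *Bscl2*, which encodes seipin, by 1.05). All counts of PB against BM stand beside 7.85% of all genes that rose and 14.1% that fell there. PB neutrophils against BM had 1 fall (*Etfa*, by 1.55) and 0 rises among 15 oxidation genes, and 3 rises and 0 falls among 6 PPAR and LXR genes. The hypoxia list had 3 rises and 2 falls of 21, with *Ero1l* falling by 2.09.

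The 5 genes whose log2 values followed *Hilpda* most closely, by the lower of 2 Pearson correlations (9 libraries of the tissue comparison and 8 of the *Piezo1* experiment), were *Traf1*, *Csf3*, *Bhlhe40*, *Il1a* and *Slc3a2* among 4241 genes with at least 5 FPKM in at least 3 libraries of each experiment. Their lower correlations were 0.998 or more in both, as a description over points that share library, depth and the tissue contrast. *Traf1*, *Csf3* and *Il1a*, with means of 0.390 FPKM or less in PB and BM, passed this filter through lung libraries alone. A gene high only in lung must follow *Hilpda* closely, so nothing is concluded from these correlations. *Csf3* lay at 17.6 FPKM in lung, 0 in PB and 0.00630 in BM neutrophils, and *Bhlhe40* at 101.5, 7.95 and 7.09 FPKM. On the same scale *G0s2* ranked 53, *Dgat2* 102, *Vegfa* 105, *Hif1a* 168, *Dgat1* 443, *Plin2* 688 and *Lipe*, lower in lung than in PB by FPKM, 4233.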

How the data were processed

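Sorted neutrophils (17 libraries) and whole lung tissue (6 libraries) were profiled by RNA-seq with paired reads of 150 bases. Per the labels and methods, the authors trimmed reads with fastp, aligned them to mm10 with HISAT2 and counted them per gene with HTSeq (versions not given in the sources used here). The values used are the deposited FPKM per gene. Reads recovered from the FPKM of the sorted libraries came out whole for 100% of 21878 genes (tolerance 0.1). The *Piezo1* experiment also had a deposited signal of each group, which the authors made from counts with DESeq2 size factors. That signal served only to check the recovered reads of those groups, and the tissue comparison had no such check. The tables also hold the authors' own fold changes and p-values, which were not used. Some symbols had been turned into dates (27 in the sorted tables, 26 in the whole-lung table). They were restored from the gene identifiers where these gave a symbol.

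Groups followed the labels. Log2(FPKM + 1) values of the 2 groups compared, for genes at 1 FPKM or more in at least 3 libraries (2 in the *Piezo1* experiment), were fitted with limma 3.58.1 (R 4.3.3; trend and robust moderation). Benjamini-Hochberg adjusted p-values ran over all genes tested, and a gene was called at an adjusted p below 0.05 with a log2 fold change above 1 in size (0.5 in whole lung, as the study used there). Because the values are FPKM, the recovered reads were tested in edgeR 4.0.16 (TMM, quasi-likelihood) and DESeq2 1.42.0 only as alternatives, beside another pseudocount (0.1), no filter, rescaling by the median ratio between libraries, the replicate number as a block, the adjusted p alone, all libraries of an experiment in 1 fit, and each library left out. The fits were tested on simulated data. Folds of log2(FPKM + 1) understate changes of low genes. FPKM counts without known strand handling cannot tell a gene from an overlapping antisense one, and the deposited *Plin2* row carries the identifier of a neighbouring pseudogene, *Gm12551*.

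The members and lists were chosen with earlier results of these data known. Besides the members, the text names the called genes of each list with the largest fold (at most 3 a list and comparison), *G0s2*, *Hif1a*, *Vegfa*, *Plin1*, *Piezo1*, *Ly6g*, and the 5 genes most correlated with *Hilpda*. Other genes named (markers, *Aqp5*) were picked after their values were seen. Some genes of the lists are counted but not reported here by name.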

Additional observations from a re-analysis of the deposited data

Results flagged for a closer look

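In 4 members the difference between WT and *Piezo1*-cKO neutrophils was not the same in lung as in PB by the test of the difference itself (limma interaction term over the 8 libraries, adjusted over all 7560 genes tested). These are 4 of the 7 members tested, and 48.2% of all genes passed the same adjusted p, so the count lies near that share. Of all genes 18.5% had a positive and 29.7% a negative term past it. With the fold of 1 as well, 0 of the 7 members passed. The term, given as the lung difference minus the PB difference on the log2 scale, was 0.53 for *Dgat2*, 0.27 for *Plin2*, 0.15 for *Pnpla2* and -0.19 for *Dgat1*. For *Dgat2* the direction turned between tissues, with both WT libraries above both cKO libraries in lung and below them in PB. *Pnpla2* was lower and *Dgat1* higher in WT in both tissues, so that their terms compare sizes of difference. The erythroid transcripts of both cKO PB libraries enter each term, and their part was not tested. The *Dgat1* term did not pass after rescaling (adjusted p = 0.139), and those of *Dgat1* and *Pnpla2* did not pass in each fit with 1 library left out (largest adjusted p 0.0972 and 0.106).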

How the results depend on the processing

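Of 734 values for members recomputed under other settings, 683 kept direction and side of the threshold. With the adjusted p alone, the members counted were 6 in lung against BM and 7 in PB against BM, beside 92.6% and 73.1% of all genes. In lung against PB the members counted were 8 in WT and 8 in cKO mice, beside 89.0% and 84.5% of all genes. Each 8 includes *Hilpda*, which was chosen on these lung libraries. Its pass is therefore not read as a test, and only the other 7 members are. Between genotypes 4 members were counted in lung and 3 in PB, and 4 for the interaction, beside 50.7%, 49.7% and 48.2% of all genes. In cKO lung against PB, *Dgat1* and *Dgat2* stayed called with rescaled FPKM, and *Plin3* and *Lipe* no longer passed the fold. *Hilpda* aside, edgeR and DESeq2 called as many members as the rescaled fit did. The log2 ratio of mean *Hilpda* FPKM in lung over PB of the tissue comparison was 8.54, rescaled 9.15, and 8.32 to 8.79 with 1 library left out. Signs turned (rescaled, edgeR and DESeq2 in that order) for *Plin2* in lung against BM (0.63, 0.79, 0.84), *Abhd5* in WT lung against PB (0.19, 0.29, 0.32), in cKO mice (0.18, 0.26, 0.29) and in the interaction (0.0094, 0.017, 0.045). They also turned for *Lipe* in lung against BM (0.044 in edgeR, 0.094 in DESeq2) and for *Pnpla2* in WT lung against PB (0.013 in DESeq2). With 1 library left out, ranges crossed 0 for *Plin2* in lung against BM (-0.034 to 0.0044), *Lipe* between genotypes in PB (-0.00018 to 0.093), *Plin3* (-0.0034 to 0.080) and *Abhd5* (-0.11 to 0.0057) in the interaction, and *Abhd5* in lung against PB of the tissue comparison (-0.044 to 0.098). In depleted whole lung they did so for *Plin2* (-0.0070 to 0.15) and *Dgat2* (-0.10 to 0.30). Where 1 library was left in a group, it was assumed to vary like the others. The cause of these shifts was not tested.

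The replicate numbers did not pair the libraries: deviations of same-numbered libraries correlated between -0.112 and 0.112. With the replicate block the members called were 4 in lung against BM and 4 in PB against BM, as without it. They were 0 between genotypes, in the interaction and after depletion, also as without it. *Hilpda* aside, the number called in lung against PB was unchanged by the block in WT and in cKO mice. After depletion 3 genes rose and 2 fell with it, against 0 and 1. Genes called higher and lower in WT than cKO lung numbered 13 and 51, but 83 and 249 with a pseudocount of 0.1, 126 and 219 in edgeR and 112 and 199 in DESeq2. In PB 143 and 122 became 356 and 316, 403 and 332, and 372 and 317. In the interaction 194 and 324 became 420 and 791, 491 and 780, and 459 and 683. Depth limits *Hilpda* outside the lung, where few reads covered it; edgeR and DESeq2 were not run on whole lung, since its reads could not be recovered.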
